A study of Mus musculus with 36 samples.

Results

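The 43 genes described here encode RNA binding proteins of neuronal RNA granules, stress granules and processing bodies. They were chosen by name from the 16614 genes of the count table, and all 43 were found there and passed the filter on low counts in every comparison. The members fall into stress granule core proteins (7 genes), Pur and Staufen transport proteins (4), cytoplasmic polyadenylation element binding proteins with a Pumilio repressor (5), Hu proteins (4), zipcode binding proteins (3), TDP-43 with FET and Y-box proteins (4), proteins that bind the poly(A) tail or the cap end (3), a group of CELF, STAR, hnRNP Q, NOVA and RBFOX proteins (8), and silencing and decay factors (5). The values below measure the mRNAs of these proteins and the ribosomes on them, not the proteins themselves.

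Neuronal RNA granules are assemblies of ribosomes, mRNAs and RNA binding proteins that travel into dendrites and axons, and many of their ribosomes are held in elongation. The RNA binding proteins carry, repress, stabilize or degrade the mRNAs, and the mRNAs that encode such regulators can be bound by the same class of proteins. FMRP, the product of Fmr1, is one of these proteins, and its loss causes Fragile X syndrome.

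Brains came from mice 5 days old, either WT (C57BL/6) or FMR1 KO, a line that lacks functional Fmr1 from the germline on, and each preparation pooled 10 brains. Ribosome-protected fragments (RPFs) were sequenced from the pellet of a sucrose gradient, where RNA granules sediment, and from fraction 5/6, which holds ribosome clusters that do not pellet. RNA-seq was run on whole brain homogenate. Each of these was made in a standard preparation with 10 mM MgCl2 and high nuclease and in a low nuclease preparation with 2.5 mM MgCl2, which gave 12 groups of 3 libraries. The preparations differ at once in MgCl2, in the nuclease and temperature of digestion and in how monosomes were recovered. These cannot be told apart. The p-values measure the spread between libraries of pooled brains, and in whole brain fewer cells of a type and less RNA per cell cannot be told apart.

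Total counts ran from 6765065 to 62310787 in the 24 RPF libraries, from 112249206 to 147216378 in the standard RNA libraries and from 41586791 to 141505786 in the low nuclease RNA libraries. Reads of Cdk8 made up 36.7% to 63.4% of a standard RPF library and 2.69% to 5.62% of a low nuclease one, so levels are given as CPM, in which counts are scaled to a common library total with Cdk8 taken out. The members together held 0.394% to 0.879% of the counts without Cdk8 in standard RPF libraries and 0.926% to 1.12% in standard RNA libraries. In 3 low nuclease RNA libraries (WT replicate 2, FMR1 KO replicates 2 and 3), 10 genes took 81.5% to 85.0% of the counts, and the CPM of nearly every member was low there. Fmr1 stood at 67.8, 67.1 and 64.6 CPM in the WT standard pellet and at 4.93, 4.79 and 4.81 CPM in FMR1 KO. The library labelled WT fraction 5/6 replicate 3 held 3.17 CPM of Fmr1 against 100.1 and 68.6 CPM in the other WT fraction 5/6 libraries. By chi-square per gene, its closest library was FMR1 KO pellet replicate 3 (136), with FMR1 KO fraction 5/6 replicate 3 next (145). Its labels of genotype and fraction are thus both uncertain. The fraction 5/6 comparisons in the standard preparation that include it are also given without it. All 5 neuronal markers fixed for the tissue (Snap25, Tubb3, Stmn2, Syt1, Map2) were detected in every library and summed to 6221 to 7286 CPM in standard RNA.

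The mRNAs of the members were abundant per length in all fractions. The median member stood at 48.5 RPKM, which is CPM for each kilobase of coding sequence, in the WT standard pellet, against 5.42 RPKM over 16370 coding genes, and 38 of 43 members lay above that median. Caprin1, which binds G3BP proteins and neuronal mRNAs, had the highest level at 321 RPKM, and Mov10, an RNA helicase of the silencing pathway, the lowest at 0.923 RPKM. In whole brain RNA, per exon length, the order differed: Ybx1 was highest at 1048.5 RPKM and Igf2bp1 lowest at 0.223 RPKM. Caprin1 stood at 705, 694 and 642 CPM in the 3 WT pellet libraries and Mov10 at 2.44, 2.29 and 3.61 CPM, from only 52, 28 and 43 counts. In both preparations Celf2, G3bp2 and Khdrbs1 were also among the members above 200 CPM in every WT pellet library.

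**Figure D1:**
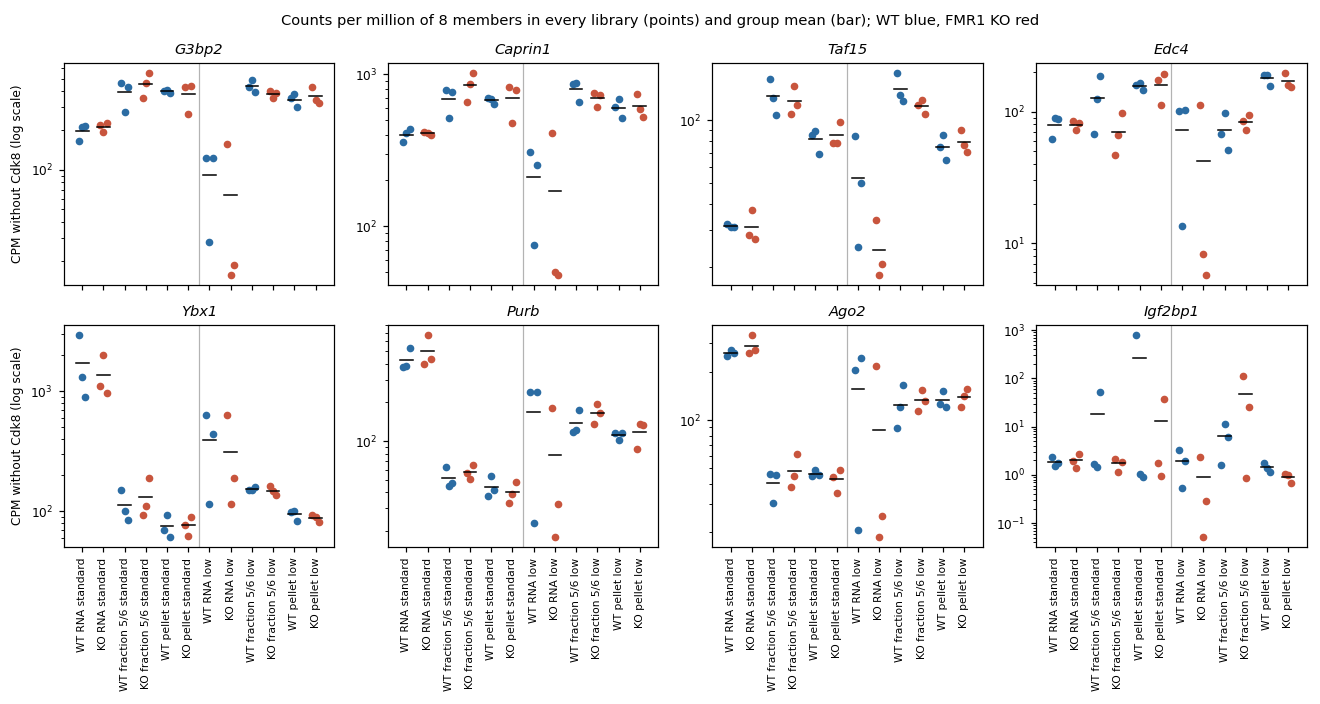
CPM without Cdk8 (log axis) of 8 members in all 36 libraries, standard on the left and low nuclease on the right, with 1 point for each library. In the standard libraries G3bp2, Caprin1, Taf15 and Edc4 sit higher in pellet RPFs than in RNA, and Ybx1, Purb and Ago2 sit lower. Igf2bp1 has 1 standard WT pellet library at 795.5 CPM beside 1.06 and 0.923 CPM.

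RPFs pile up at particular codons of these mRNAs, and the sequences under the piles that recurred are shown first because they place pellet ribosomes on the members' coding sequence. The deposited lists give peaks of RPF coverage on transcripts for each standard RPF library. A peak on a member was present in a pellet library for 33 of 43 genes, in all 6 pellet libraries for 26, and in any library for 35. The 8 genes with no deposited peak were Tia1, Tial1, Cpeb1, Igf2bp1, Igf2bp2, Larp4, Mov10 and Dcp2. Member peaks numbered 248 to 439 in a pellet library, which was 1.15% to 1.37% of its peaks. Peak middles within 6 nt of each other in all 6 pellet libraries occurred at 6 positions on 5 member mRNAs, of 369 positions over all transcripts. A further 6 positions (of 382) recurred in the 3 WT and in no FMR1 KO pellet library, and 6 (of 286) in the 3 FMR1 KO and in no WT library. All 18 lie in the coding part of their mRNA. The paper, with a cut on peak height, found many fewer positions of 1 genotype than positions shared by all 6 libraries. Its totals were counted otherwise and are not comparable with those here. The totals here also change with the matching distance, as given below.

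The 30 nt around the middle of each position that recurred in all 6 pellet libraries are printed 5′ to 3′ on the transcript strand, with GRCm38 coordinates. Capitals mark the word AGGA, the word TGGA, the word ACTT and the word ACTG, searched on the transcript strand only. The first pair of words share their last 3 letters and the second pair their first 3.
G3bp1 codon 133, chr11:55491996-55492025, plus strand, exon 5 of 12: cgacatcttcaggtaccaagatgaggtctt
G3bp1 codon 347, chr11:55497990-55498019, plus strand, exon 10 of 12: gggaacctgccacatgaggttgacaagtcg
Elavl3 codon 324, chr9:22018620-22018649, minus strand, exon 7 of 7: accaccaacaagtgcaagggtttcggcttc
Ybx1 codon 281, chr4:119279078-119279107, minus strand, exon 7 of 8: aacgtcggtatcgccgaaACTTcaattacc
Nova2 codon 68, chr7:18942318-18942347, plus strand, exon 2 of 4: gagccaccatcaagctgtctaagtccaaag
Ago2 codon 825, chr15:73107002-73107179, minus strand, across the junction of exons 18 and 19 of 19: taaagaacatgacagcgctgaAGGAagcca

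Of these 6 windows, 2 held at least 1 of the words, against 54.8% of the 367 windows that recurred in all 6 pellet libraries over all transcripts. Peak heights are read coverage that is not scaled between libraries, so they show presence rather than amount. At Elavl3 codon 324 the heights were 161, 97 and 69 in WT and 125, 52 and 87 in FMR1 KO. G3bp1 codon 133 had heights of 87, 42 and 38 in WT and 74, 40 and 63 in FMR1 KO, and a peak stood there in all 6 fraction 5/6 libraries too. The same held for Ybx1 codon 281, with 73, 39 and 30 in WT and 46, 25 and 63 in FMR1 KO. All 6 positions also held a peak in fraction 5/6, G3bp1 codon 133 and Ybx1 codon 281 in all 6 of its libraries, Elavl3 codon 324, Nova2 codon 68 and Ago2 codon 825 in 3, and G3bp1 codon 347 in 2. The 6 fraction 5/6 libraries include the one labelled WT replicate 3, whose labels are uncertain.

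Ago2, the Argonaute that carries microRNAs, and Caprin1 had the most positions that recurred in 1 genotype. Their 6 windows are shown, of the 12 positions where a peak recurred in the pellet libraries of 1 genotype and not of the other.
Ago2 codon 315, WT, chr15:73125235-73125264, minus strand, exon 8 of 19: cccagtACTTcaAGGAcaggcacaagctgg
Ago2 codon 557, WT, chr15:73119404-73119433, minus strand, exon 13 of 19: acgtgcagAGGAccacgccacagaccctat
Ago2 codon 199, FMR1 KO, chr15:73128370-73128399, minus strand, exon 5 of 19: gggggcagagaagtgtggtttggcttccat
Caprin1 codon 145, WT, chr2:103779482-103779511, minus strand, exon 5 of 19: cagaagcgcttaaaaACTGtACTTgagtta
Caprin1 codon 174, WT, chr2:103779396-103779425, minus strand, exon 5 of 19: tttgagTGGAgtgccaatattgtctgAGGA
Caprin1 codon 591, FMR1 KO, chr2:103769542-103769571, minus strand, exon 16 of 19: gcaacccccacagcagaacACTGgctttcc

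The words were in 4 of 6 WT windows and 5 of 6 FMR1 KO windows of the members, against 186 of 381 and 155 of 284 windows over all transcripts. At Caprin1 codon 145 the WT heights were 92, 52 and 59, and 2 FMR1 KO fraction 5/6 libraries held a peak there. A peak of Ago2 codon 315 likewise appeared in 2 FMR1 KO fraction 5/6 libraries, with heights of 12 and 19. The genotype split of these positions was not tested, because a missing peak is a call of the authors' peak finder in a single library. With middles matched within 3 nt the positions in all 6 libraries fell to 2, and within 12 nt there were 28. Leaving out 1 pellet library gave 9 to 13 positions, with 13 without WT replicate 2, 12 without FMR1 KO replicate 3, and 11 without WT replicate 3 or without FMR1 KO replicate 2. The positions of 1 genotype moved more, as did those over all transcripts. Those of WT were 20, 19 and 25 without WT replicates 1, 2 and 3 and 12, 9 and 14 without FMR1 KO replicates 1, 2 and 3, while those of FMR1 KO were 17, 28 and 25 without FMR1 KO replicates 1, 2 and 3 and 10 without any one WT replicate. Over all transcripts those of WT were 1676, 1760 and 2240 without WT replicates 1, 2 and 3 and 612, 509 and 584 without FMR1 KO replicates 1, 2 and 3, beside 382 with all libraries. Those of FMR1 KO were 1059, 1954 and 1733 without FMR1 KO replicates 1, 2 and 3 and 477, 406 and 426 without WT replicates 1, 2 and 3, beside 286. Within 3 nt the members held 5 in WT and 4 in FMR1 KO, beside 243 and 163 over all transcripts, and within 12 nt also 5 and 4, beside 495 and 370 over all transcripts and 1165 that were shared by all 6 libraries. Among peaks at or above the median height of their library the members held 4 and 3, beside 233 and 139.

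**Figure D2:**
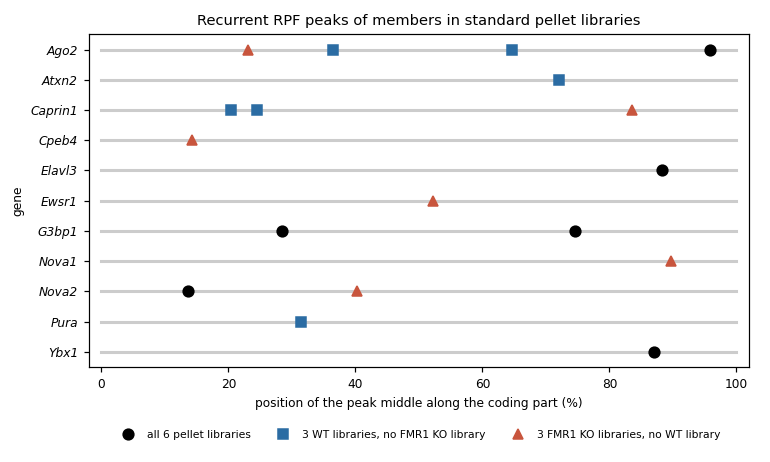
Position of recurrent RPF peaks along the coding part (0% is the start codon, 100% the last codon) of 11 member mRNAs in standard pellet libraries. Circles recur in all 6 libraries, squares in the 3 WT and no FMR1 KO library, and triangles in the 3 FMR1 KO and no WT library; Ago2 has 4 positions and Caprin1 3.

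Occupancy, pellet RPFs over whole brain RNA, asks how many pelleted ribosomes there are for the amount of an mRNA. It does not give the share of that mRNA in the pellet. In WT, standard preparation, 19 members were higher in the pellet than in RNA and 9 were lower, beside 31.1% of the 16200 genes tested that were higher and 34.2% that were lower (edgeR quasi-likelihood test, adjusted p below 0.05). In FMR1 KO the counts were 18 and 10, beside 31.8% and 35.2% of 16204 genes. The median log2 fold change of the members was 0.25 in WT and 0.17 in FMR1 KO, and that of all genes tested was -0.10 and -0.07. Of the higher members 18 were the same genes in both genotypes, and of the lower ones 9. Over all genes 4432 were higher in both genotypes and 4801 lower in both, 27.6% and 29.8% of the 16084 genes tested in both. A list of 38 other granule proteins had 24 higher and 4 lower in WT.

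These directions are relative to the typical gene, which the TMM scaling places near 0. With library size alone the median of all genes moved to -1.26 in WT and -1.17 in FMR1 KO, the members called became 9 higher and 28 lower in WT and 7 higher and 27 lower in FMR1 KO, and 8 of the 28 called members changed sign in each genotype. Over all genes the counts under this scaling were 1416 higher and 10957 lower of 16200 in WT and 1285 and 10044 of 16204 in FMR1 KO. In WT those 8 were Cpeb1, Elavl1, Elavl2, Ewsr1, Nova1, Stau1, Syncrip and Tia1, and in FMR1 KO they were the same genes with Elavl4 in place of Nova1. DESeq2 kept the sign of every called member.

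Among stress granule core proteins, which bind untranslated mRNA under stress, 5 of 7 were higher in both genotypes and none was lower. G3bp2, a scaffold of stress granules, stood at 403, 412 and 385 CPM in WT pellets and 167, 212 and 218 CPM in WT RNA. All pellet values lay above all RNA values, with a log2 fold change of 2.16 ± 0.15 (SE) and adjusted p = 1.6e-05 in WT and 1.92 ± 0.12 in FMR1 KO. Caprin1 (1.92 ± 0.14 in WT), Atxn2l (1.63 ± 0.14) and Atxn2 (1.57 ± 0.13), the ataxin-2 proteins that bind poly(A)-binding protein, were higher as well. Tia1, which nucleates stress granules, was higher by less, with 30.4, 38.4 and 23.8 CPM in WT pellets and 44.9, 42.1 and 47.5 CPM in WT RNA, a fitted log2 difference of 0.60 ± 0.13 (adjusted p = 0.0054). Its CPM was lower in every pellet library than in any RNA library, and the fitted difference is positive only relative to the typical gene. G3bp1, the paralogue of G3bp2, was not called, at 47.4, 53.4 and 46.5 CPM in WT pellets against 108, 124 and 142 CPM in RNA (-0.19 ± 0.12). The 2 paralogues thus stood on different sides of the threshold, and the difference between them was not tested.

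The TDP-43, FET and Y-box group held both the strongest rise and the strongest fall among the members other than Igf2bp1. Taf15, an RNA binding protein of the FET family, had 85.2, 89.1 and 68.7 CPM in WT pellets and 32.2, 31.1 and 30.9 CPM in WT RNA, a log2 difference of 2.52 ± 0.11 (adjusted p = 5.3e-06), and 2.57 ± 0.20 in FMR1 KO. Tardbp, which encodes TDP-43, was 1.54 ± 0.11 in WT and 1.71 ± 0.12 in FMR1 KO, and Ewsr1 was 0.42 ± 0.15 and 0.42 ± 0.15. Ybx1, a Y-box protein that packages mRNA, went the other way. It stood at 70.1, 92.6 and 61.1 CPM in WT pellets and 2931, 1307 and 884 CPM in WT RNA, with log2 differences of -3.38 ± 0.45 in WT (adjusted p = 0.00041) and -3.07 ± 0.33 in FMR1 KO. Its RNA level differed more than 3-fold between WT libraries, and even the lowest RNA library was above every pellet library.

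Silencing and decay factors split, with 2 of 5 higher and 2 lower in both genotypes. Edc4, the scaffold of the decapping complex, had 159, 166 and 147 CPM in WT pellets and 61.9, 88.8 and 88.1 CPM in RNA (2.14 ± 0.16, adjusted p = 2.6e-05). Cnot1, the scaffold of the deadenylase complex, was also higher (1.40 ± 0.16). Dcp2, the decapping enzyme itself, had 6.16, 7.36 and 6.79 CPM in pellets and 77.3, 74.0 and 80.3 CPM in RNA (-2.36 ± 0.11). Ago2 had 44.5, 48.6 and 45.5 CPM in pellets and 251, 274 and 261 CPM in RNA (-1.35 ± 0.11). In FMR1 KO, Edc4 was 2.09 ± 0.11, Dcp2 -2.50 ± 0.20 and Ago2 -1.66 ± 0.15.

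The FMR1 KO libraries behind these values were as follows. G3bp2 stood at 434, 268 and 437 CPM in FMR1 KO pellets and 219.7, 195 and 226 CPM in FMR1 KO RNA. Taf15 stood at 77.9, 78.1 and 97.7 CPM in pellets and 28.5, 37.2 and 27.3 CPM in RNA. Edc4 stood at 174, 112 and 193 against 85.1, 72.1 and 82.0 CPM. For these 3 genes the lowest pellet library was above the highest RNA library. Ybx1 stood at 77.0, 62.5 and 88.5 CPM in pellets and 1092, 2010.1 and 971 CPM in RNA. Dcp2 stood at 6.29, 7.18 and 7.93 against 78.1, 100.1 and 85.7 CPM. Ago2 stood at 44.3, 35.3 and 48.9 against 262, 339 and 272 CPM, and for these 3 genes every pellet library was below every RNA library.

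Transport proteins differed among themselves. Purb, a Pur protein that binds single-stranded nucleic acid, was lower, with 37.3, 53.9 and 41.4 CPM in WT pellets and 375, 382 and 529.6 CPM in RNA (-2.13 ± 0.17, and -2.53 ± 0.29 in FMR1 KO, where pellets held 33.1, 38.9 and 47.8 CPM and RNA 398, 670.3 and 433 CPM). Stau1, a double-stranded RNA binding protein of transport granules, was higher (1.15 ± 0.10 and 1.07 ± 0.09). Stau2, its brain-enriched relative, was not called, at 110.4, 123.1 and 98.8 CPM in pellets and 233, 197 and 188 CPM in RNA (0.25 ± 0.13). Pura was not called either, at 47.9, 57.6 and 55.5 against 90.6, 115 and 126 CPM (0.12 ± 0.15).

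Of the Hu proteins, which stabilize AU-rich mRNAs, 3 of 4 were higher in both genotypes. Elavl4 was 1.34 ± 0.11 in WT and 1.04 ± 0.14 in FMR1 KO, Elavl2 1.06 ± 0.11 and 0.95 ± 0.12, and Elavl1 0.52 ± 0.13 and 0.30 ± 0.10. Elavl3 was lower in FMR1 KO alone (-0.55 ± 0.14, against -0.30 ± 0.15 in WT), and the interaction of genotype and library type gave -0.21 ± 0.20 for it, which was not called. The poly(A) and cap-end group had no higher member and 2 lower ones, Pabpc1, the main cytoplasmic poly(A)-binding protein (-1.25 ± 0.22 in WT), and Larp4 (-0.45 ± 0.11). Pum2, a Pumilio repressor, was lower (-0.49 ± 0.12 and -0.74 ± 0.10), Cpeb1, the founding cytoplasmic polyadenylation factor, was higher (0.68 ± 0.22 and 0.83 ± 0.18), and Cpeb2, Cpeb3 and Cpeb4 were not called. In the CELF to RBFOX group Khdrbs1, the STAR protein Sam68 (1.86 ± 0.12 in WT), and Syncrip, also known as hnRNP Q (0.88 ± 0.12), were higher in both genotypes, and Nova2, a neuronal splicing factor, was lower (-0.62 ± 0.15).

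Igf2bp1, the zipcode binding protein that carries beta-actin mRNA, was called higher in both genotypes but on single libraries. WT pellet replicate 1 held 795.5 CPM from 16924 counts, and the others held 1.06 and 0.923 CPM from 13 and 11 counts. In FMR1 KO the pellets held 1.75, 0.957 and 37.2 CPM. RNA held 2.32, 1.51 and 1.78 CPM in WT and 1.93, 1.39 and 2.67 CPM in FMR1 KO. The log2 difference was 8.34 ± 2.61 in WT (adjusted p = 0.024) and 3.68 ± 1.20 in FMR1 KO (adjusted p = 0.03). Without WT pellet replicate 1 it was 0.18 ± 0.37 (adjusted p = 0.69), and without FMR1 KO pellet replicate 3 it was 0.60 ± 0.38 (adjusted p = 0.21). Igf2bp3, a paralogue, was lower in both (-0.94 ± 0.24 and -0.64 ± 0.15), and Igf2bp2 was not called.

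Footprints come mostly from coding sequence, while RNA-seq reads cover the whole mRNA. In the representative transcript the coding part made up 11.7% of Purb, 14.7% of Dcp2 and 18.7% of Ago2, against 89.8% of Edc4 and 80.8% of Taf15. The median coding share was 63.5% in the members called higher in WT and 40.0% in those called lower. Spearman's rho between coding share and log2 difference across the 43 members was 0.33 in WT and 0.39 in FMR1 KO, a description across genes that share libraries, and at low nuclease it was 0.26 and 0.21. There the median coding share was 57.5% in higher and 48.6% in lower members of WT, and the other way round in FMR1 KO, 51.7% in the higher members and 59.3% in Ybx1, the 1 lower member. Several members lay off this trend in the standard preparation. Among them Tardbp (16.6%), Elavl4 (29.1%) and Khdrbs1 (35.6%) were called higher, and Ybx1 (59.3%) and Pabpc1 (67.7%) were called lower. The part of untranslated sequence in these occupancies was not tested. Markers of other cell types moved too: the 3 blood markers summed to 195 to 457 CPM in WT RNA and 4.19 to 10.7 CPM in WT pellets, and the 4 of the oligodendrocyte lineage to 232 to 526 and 73.3 to 107 CPM. The 3 microglia markers summed to 141 to 160.2 CPM in WT RNA and 90.9 to 96.3 CPM in WT pellets, and the 2 endothelial ones to 4.62 to 5.52 and 0.654 to 1.09 CPM. The sum of the 4 astrocyte markers went the other way, with 181 to 275 CPM in WT RNA and 328 to 445 CPM in WT pellets. Of these, Aldh1l1 and Slc1a3 were higher in WT pellets and Gja1 overlapped. Aqp4 was lower, at 14.7, 22.7 and 28.9 CPM in WT pellets against 36.7, 29.2 and 61.8 CPM in WT RNA. No marker was at 0 in any library, and the part of these cell types in the result was not tested.

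**Figure D3:**
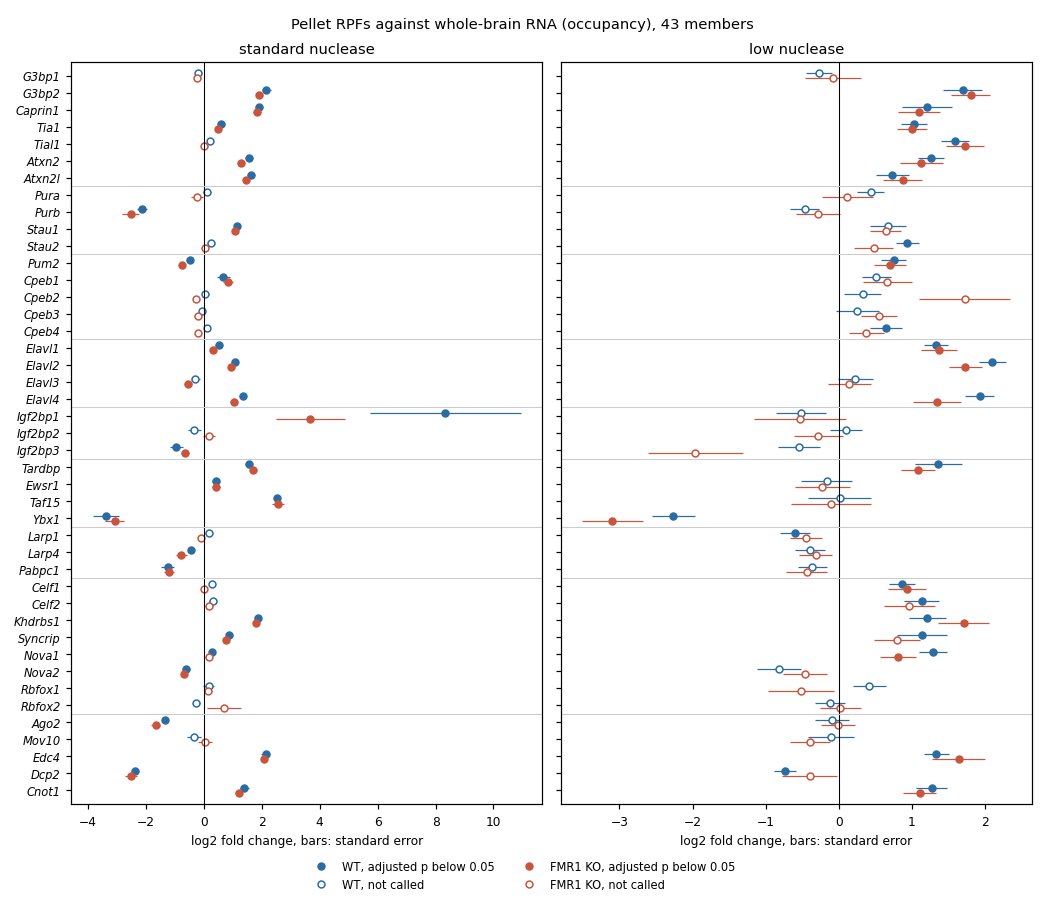
Log2 fold change of pellet RPFs against whole brain RNA (occupancy) for the 43 members by role, standard preparation on the left and low nuclease on the right, WT in blue and FMR1 KO in red, bars giving the standard error. Filled points passed an adjusted p of 0.05; G3bp2, Caprin1 and Edc4 are filled to the right and Ybx1 to the left in both genotypes and both preparations.

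In the low nuclease preparation, 20 members were higher and 3 lower in WT, beside 26.6% and 25.5% of 15570 genes. In FMR1 KO 16 were higher and 1 lower, beside 16.1% and 12.8% of 15266 genes. Called higher in both genotypes and both preparations were 12 members, Atxn2, Atxn2l, Caprin1, Cnot1, Edc4, Elavl1, Elavl2, Elavl4, G3bp2, Khdrbs1, Tardbp and Tia1, and called lower in all of them was Ybx1 alone among the members. Over all genes 12.3% were higher and 8.94% lower in all 4 comparisons, of 15105 genes tested in each. Among called members the strongest rises in WT were Elavl2 (2.104 ± 0.19), Elavl4 (1.93 ± 0.20), G3bp2 (1.70 ± 0.27) and Tial1, a TIA1 relative (1.59 ± 0.19), and in FMR1 KO G3bp2 (1.80 ± 0.27), Elavl2 (1.73 ± 0.22), Tial1 (1.72 ± 0.26) and Khdrbs1 (1.71 ± 0.35). Ybx1 was -2.26 ± 0.29 in WT and -3.10 ± 0.41 in FMR1 KO. In WT, Dcp2 (-0.74 ± 0.15) and Larp1, a cap-end binding regulator of ribosomal protein mRNAs (-0.60 ± 0.21, adjusted p = 0.046), were the other lower members.

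The low nuclease values rest on uneven RNA libraries. G3bp2 had 353, 377 and 300.2 CPM in WT pellets and 124, 27.7 and 122 CPM in WT RNA, where the middle value is 1 of the 3 libraries dominated by 10 genes. Elavl2 had 189, 201 and 167 CPM in WT pellets and 52.9, 8.27 and 70.0 CPM in RNA. Elavl4 had 164, 177 and 148 against 48.7, 9.60 and 63.3 CPM. Every pellet library lay above every RNA library for these 3 genes. Tial1 had 43.9, 50.3 and 61.4 CPM in WT pellets and 24.2, 3.09 and 26.4 CPM in RNA, the same pattern. Ybx1 had 98.4, 101 and 81.9 CPM in WT pellets and 626, 115 and 435 CPM in RNA. Dcp2 had 20.6, 17.7 and 20.2 against 44.1, 5.94 and 49.9 CPM. Larp1 had 128, 155 and 157 against 321, 48.1 and 269 CPM. The single low value in each RNA group is the library dominated by 10 genes, and without scaling it lies near or below the pellets in these genes.

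In FMR1 KO the low nuclease pellets held 431, 342 and 326 CPM of G3bp2 and RNA 159, 15.6 and 18.5 CPM. Tial1 had 48.4, 60.9 and 86.0 CPM in pellets and 25.0, 3.25 and 3.59 CPM in RNA. Khdrbs1 had 329, 264 and 254 against 175, 10.9 and 11.7 CPM. These RNA groups each hold 1 library far above the other two. Elavl2 had 201, 194 and 182 CPM in pellets and 79.0, 8.93 and 10.7 CPM in RNA. Ybx1 had 93.0, 88.6 and 81.6 against 626, 116 and 188 CPM. With the 3 RNA libraries dominated by 10 genes left out, a choice made after seeing the data, 21 members were higher and 4 lower in WT and 17 and 3 in FMR1 KO, beside 4681 and 4765 of 16023 genes in WT and 3111 and 3052 of 16009 in FMR1 KO. This leaves 2 RNA libraries in WT and 1 in FMR1 KO, where the spread then comes from the 3 pellet libraries and the lone RNA library is assumed to vary like them. With the standard RNA libraries in their place the counts were 15 higher and 9 lower in WT and 16 and 11 in FMR1 KO, beside 5157 and 5384 of 16358 genes in WT and 4448 and 5566 of 16366 in FMR1 KO, and Larp1 turned to 0.18. With library size alone no member was called in either genotype, beside 263 genes higher and 42 lower of 15570 in WT and 201 and 15 of 15266 in FMR1 KO. With all libraries and TMM scaling, the 17 members called in FMR1 KO fell to 4 without RNA replicate 2, beside 924 genes higher and 566 lower. They fell to 5, 8 and 7 without pellet replicates 1, 2 and 3, beside 1085, 1430 and 1210 genes higher and 700, 1138 and 497 lower.

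Pum2 was called in opposite directions in the preparations, lower in the standard (-0.49 ± 0.12 in WT) and higher in the low nuclease preparation (0.75 ± 0.17 in WT, 0.70 ± 0.21 in FMR1 KO). It stood at 149.6, 147 and 143 CPM in low nuclease WT pellets and 115, 19.3 and 114 CPM in the RNA of that preparation. The standard libraries held 86.5, 96.9 and 69.3 CPM in pellets and 242, 253 and 292 CPM in RNA. Pellet and RNA levels both differed between the preparations, and the change of occupancy between them was not tested.

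Enrichment, pellet over fraction 5/6 RPFs, asks whether an mRNA is in ribosomes that pellet rather than in lighter clusters. In the WT standard preparation no member was called by edgeR, beside 0.0228% of 13135 genes called in either direction, and 4 had an unadjusted p below 0.05 (6.24% of all genes did). DESeq2 called 0 members, beside 10 genes higher and 80 lower. When the library labelled WT fraction 5/6 replicate 3 was left out, 3 members were higher and 3 lower, as were 1027 and 235 of the 13319 genes then tested. The higher ones were Cnot1 (1.55 ± 0.13, adjusted p = 0.0078), Larp1 (0.80 ± 0.14) and Atxn2 (0.62 ± 0.11), and the lower ones Taf15 (-0.89 ± 0.14), Ybx1 (-0.81 ± 0.13) and Tardbp (-0.68 ± 0.12). Cnot1 stood at 174, 171 and 176 CPM in WT pellets and 66.6, 47.7 and 180.5 CPM in fraction 5/6, where the library in question is the only one at the pellet's level.

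In FMR1 KO, 3 members were higher in the pellet and 1 was lower, beside 10.1% and 1.39% of 13333 genes. Edc4 had 174, 112 and 193 CPM in FMR1 KO pellets and 47.0, 65.9 and 97.3 CPM in fraction 5/6 (1.56 ± 0.15, adjusted p = 0.0021). Cnot1 had 208, 109.8 and 197 against 55.7, 75.0 and 107 CPM (1.47 ± 0.16, adjusted p = 0.0032). For both genes all pellet values lay above all fraction 5/6 values. Larp1 was higher although its groups overlapped, with 81.5, 56.8 and 105 against 49.7, 62.8 and 65.4 CPM (0.76 ± 0.17, adjusted p = 0.034). Tia1 was lower, with 35.1, 22.2 and 36.1 against 51.6, 47.8 and 71.9 CPM (-0.53 ± 0.11, adjusted p = 0.025). DESeq2 called 5 members higher and 5 lower, beside 1574 and 502 of all genes, and library size alone called no member, beside 147 and 25 of all genes. Leaving out any pellet library, or fraction 5/6 replicate 1 or 3, left 2 members called, Cnot1 and Edc4, beside 535 to 1228 genes higher and 9 to 158 lower.

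In the low nuclease preparation 3 members were higher and 7 lower in WT, beside 14.3% and 8.58% of 15586 genes, and 4 were higher and 1 lower in FMR1 KO, beside 9.31% and 10.7% of 15580 genes. Edc4 had 191, 192 and 158 CPM in WT pellets and 68.0, 98.0 and 50.7 CPM in fraction 5/6 (1.43 ± 0.27), and it was 1.21 ± 0.18 in FMR1 KO. Mov10 was higher in both genotypes too, with 5.36, 6.67 and 5.63 CPM in WT pellets and 2.304, 3.39 and 3.90 CPM in WT fraction 5/6 (1.01 ± 0.21). In FMR1 KO it had 4.26, 4.76 and 4.04 against 2.92, 3.71 and 3.59 CPM (0.55 ± 0.15). Cpeb1 was higher in WT, at 7.91, 5.82 and 7.61 against 5.43, 5.65 and 5.39 CPM (0.48 ± 0.13). In FMR1 KO Larp1 (0.68 ± 0.10) and Larp4 (0.45 ± 0.12) were the other higher members. In WT neither was called, and Larp1 was at 128, 155 and 157 CPM in pellets and 95.0, 359.6 and 97.8 CPM in fraction 5/6, where replicate 2 stood apart (-0.21 ± 0.54, and 0.72 ± 0.18 with an adjusted p of 0.051 when that library was left out). Larp1 had 154, 142 and 145 CPM in FMR1 KO pellets and 99.6, 108 and 108 CPM in fraction 5/6, and Larp4 19.1, 21.4 and 23.0 against 14.9, 18.0 and 20.0 CPM. Edc4 in FMR1 KO had 196, 159.6 and 153 against 84.6, 72.4 and 94.3 CPM.

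The 7 lower members of WT came from 5 of the 9 roles, and 3 of them from the TDP-43, FET and Y-box group. Taf15 stood at 74.3, 84.8 and 64.9 CPM in low nuclease WT pellets and 167, 132 and 122.9 CPM in fraction 5/6 (-0.81 ± 0.20), without overlap. Tia1 had 34.4, 35.4 and 35.0 against 58.5, 54.6 and 64.5 CPM (-0.64 ± 0.10), also without overlap. Tardbp (-0.62 ± 0.15) had 168, 183 and 147 CPM in WT pellets and 286, 278 and 261 CPM in fraction 5/6. Syncrip (-0.61 ± 0.17) had 143, 166 and 132 against 259, 244 and 224 CPM. Ybx1 (-0.59 ± 0.12), Elavl1 (-0.47 ± 0.11) and Stau2 (-0.45 ± 0.11) were lower as well, and Ybx1 was the 1 member lower in FMR1 KO (-0.57 ± 0.13, at 93.0, 88.6 and 81.6 against 160.2, 147 and 136 CPM). Of the 38 other granule proteins 1 was higher and 11 lower in WT. DESeq2 called 3 higher and 11 lower in WT and 5 and 2 in FMR1 KO, and library size alone 2 and 13 in WT and 2 and 14 in FMR1 KO. Over all genes DESeq2 called 2965 higher and 1980 lower in WT and 2178 and 1475 in FMR1 KO, and library size alone 1573 and 1905 in WT and 1154 and 4252 in FMR1 KO. Both these counts and those over all genes changed when 1 library was left out. In WT, 0, 5 and 1 members were called without pellet replicates 1, 2 and 3, beside 955, 1186 and 915 genes higher and 125, 429 and 70 lower. Without fraction 5/6 replicates 1, 2 and 3 they were 2, 4 and 6, beside 1124, 1817 and 1601 genes higher and 230, 726 and 634 lower. In FMR1 KO, 2 members were called without pellet replicate 2 or 3, beside 504 and 844 genes higher and 127 and 930 lower. There 1 member was called without fraction 5/6 replicate 1 or 2 and 0 without replicate 3, beside 381, 396 and 310 genes higher and 61, 94 and 26 lower.

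**Figure D4:**
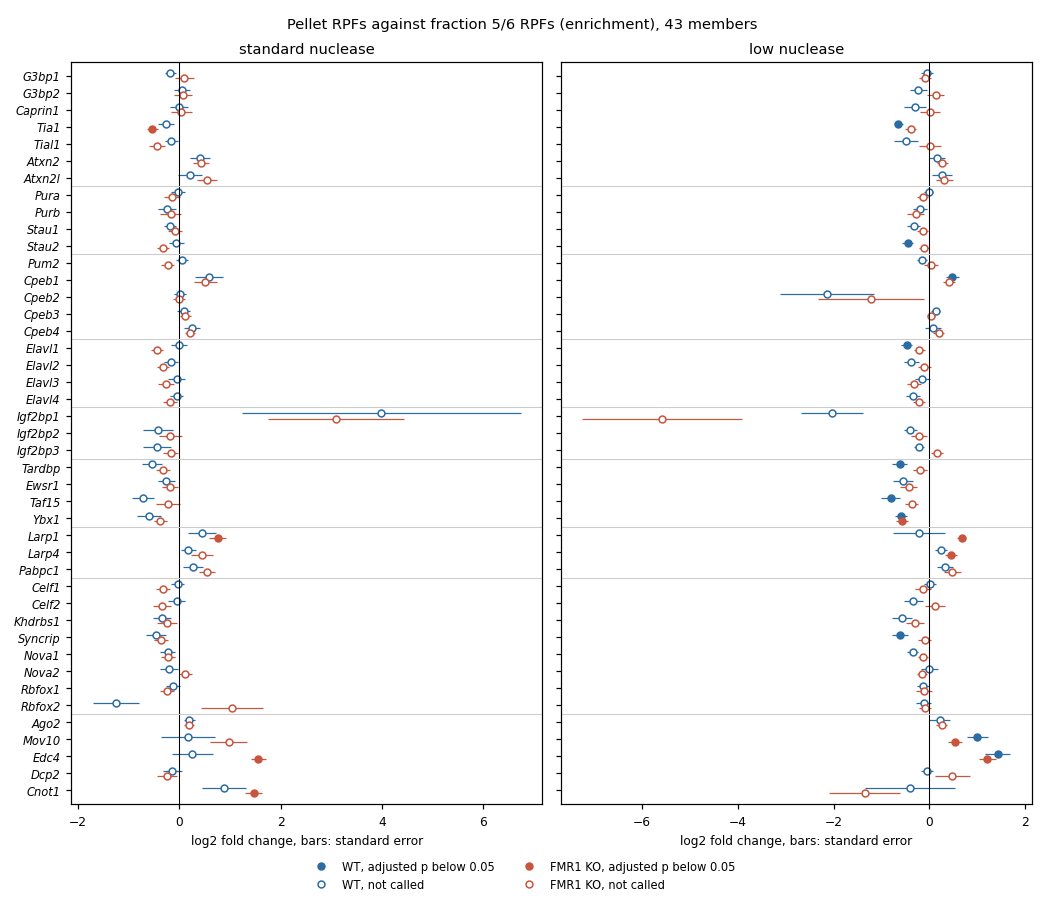
Log2 fold change of pellet RPFs against fraction 5/6 RPFs (enrichment) for the 43 members by role, standard on the left and low nuclease on the right, with standard errors. Between 32 and 36 of 43 members lie within 0.5 of 0 in each comparison, Edc4 is to the right with filled points in FMR1 KO in both preparations and in WT at low nuclease, and the widest bars belong to Igf2bp1, Mov10, Rbfox2, Cnot1 and Cpeb2.

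The genotype comparison asks whether the loss of FMRP moves the ribosomes on these mRNAs. In standard pellets edgeR called 0 of 43 members, beside 0.0152% of 13171 genes, and DESeq2 0, beside 62 genes higher and 34 lower. In edgeR 2 members had an unadjusted p below 0.05, as did 5.34% of all genes. The median log2 difference of FMR1 KO against WT was 0.01 over the members and -0.00 over all genes. For 39 of 43 members the difference lay within 0.5, and the median standard error was 0.12. Igf2bp2 had the smallest p, with 2.59, 2.37 and 2.43 CPM in WT and 5.12, 2.63 and 3.52 CPM in FMR1 KO (0.62 ± 0.24, unadjusted p = 0.036, adjusted p = 0.86). Tardbp was next, with 166, 166 and 131 against 213, 139 and 201 CPM (0.28 ± 0.11), and its groups overlapped. The other members past 0.5 were Igf2bp3 (0.58 ± 0.26) and the genes set by single libraries, Igf2bp1 (-4.49 ± 2.74) and Rbfox2 (1.13 ± 0.62). Without WT pellet replicate 1 the difference of Igf2bp1 turned to 3.61 ± 1.75, and without FMR1 KO pellet replicate 1 that of Rbfox2 was 0.01 ± 0.14.

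Of the members whose proteins were blotted in the study, G3bp1, Stau2, Pura and Tia1 were not called between genotypes. G3bp1 stood at 47.4, 53.4 and 46.5 CPM in WT pellets and 54.3, 34.2 and 68.9 CPM in FMR1 KO pellets (0.10 ± 0.12). Stau2 stood at 110.4, 123.1 and 98.8 against 101.8, 72.5 and 124 CPM (-0.14 ± 0.10). Pura had 47.9, 57.6 and 55.5 against 39.2, 39.4 and 56.5 CPM (-0.21 ± 0.16), and Tia1 30.4, 38.4 and 23.8 against 35.1, 22.2 and 36.1 CPM (0.04 ± 0.13). The groups overlapped for all 4 genes. In low nuclease pellets 0 members were called by edgeR, beside 0.0197% of 15263 genes, and 0 by DESeq2, beside 57 genes higher and 32 lower. In edgeR 1 member had an unadjusted p below 0.05 (4.34% of all genes did), and 36 of 43 differences were positive with a median of 0.11. The median of all genes was 0.00. With library size alone 23 were positive, the median of the members was 0.01 and that of all genes -0.10. Smallest in p there were Igf2bp3 (0.30 ± 0.12), at 9.29, 9.15 and 8.96 CPM in WT and 10.9, 9.67 and 10.9 CPM in FMR1 KO, and Igf2bp1 (-0.58 ± 0.26), at 1.79, 1.38 and 1.15 CPM in WT and 1.05, 0.974 and 0.669 CPM in FMR1 KO.

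**Figure D5:**
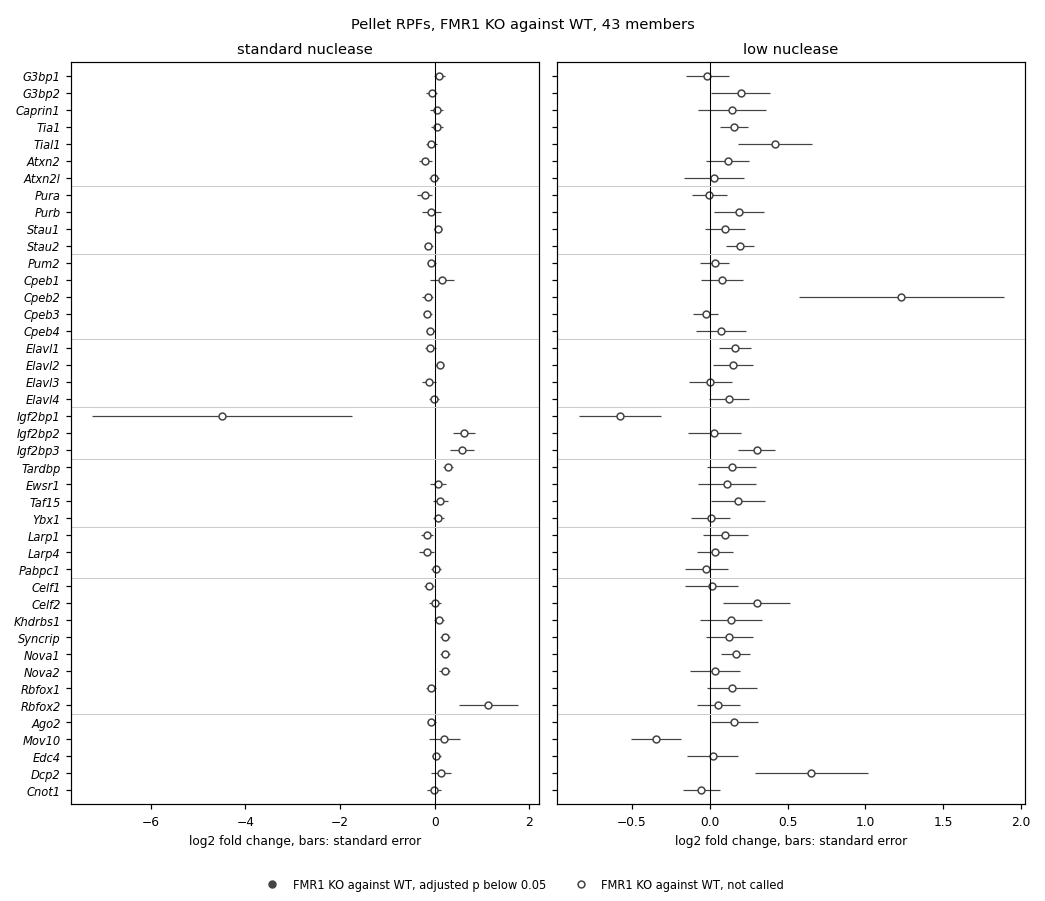
Log2 fold change of pellet RPFs in FMR1 KO against WT for the 43 members by role, standard on the left and low nuclease on the right, with standard errors and separate axes. No point is filled, 39 of 43 standard and 40 of 43 low nuclease values lie within 0.5 of 0, and the widest bars belong to Igf2bp1 on the left and Cpeb2 on the right.

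In fraction 5/6, edgeR called 0 members, beside 0.0% of 13108 genes, and DESeq2 0, beside 3 genes higher and 78 lower. In edgeR 3 members had an unadjusted p below 0.05 (4.56% of all genes did). Edc4 had 67.6, 126 and 188 CPM in WT and 47.0, 65.9 and 97.3 CPM in FMR1 KO (-1.24 ± 0.40, adjusted p = 0.83), and the difference was -1.02 ± 0.43 once the library labelled WT in fraction 5/6 as replicate 3 was left out. Rbfox2, a neuronal splicing factor, had 221, 371 and 740.5 against 204, 234 and 329 CPM (-1.13 ± 0.44, and -0.74 ± 0.39 without the same library). Igf2bp1 was the other member at that cut (-3.54 ± 1.44, and -0.21 ± 0.43 without it). The change of enrichment between genotypes called 0 members by edgeR, beside 0.0% of 13749 genes, and 0 by DESeq2, beside 38 genes higher and 3 lower. In edgeR 3 members were at an unadjusted p below 0.05 (5.56% of all genes). Edc4 gave 1.27 ± 0.45 there (adjusted p = 0.82), and 1.05 ± 0.46 without WT fraction 5/6 replicate 3. Rbfox2 gave 2.27 ± 0.84, which was 1.86 ± 0.85 without that library and 1.11 ± 0.53 without FMR1 KO pellet replicate 1, the library with 921 CPM beside 154 and 201, where WT pellets held 200.2, 209 and 161 CPM. Leaving out WT fraction 5/6 replicate 1 led to 1 member called, Edc4, beside 4 of 13975 genes. Without WT fraction 5/6 replicate 3, 0 members were called in either of these comparisons, beside 4 of 13135 and 0 of 14008 genes, and 0 and 2 members had an unadjusted p below 0.05, beside 6.19% and 5.90% of genes. With library size alone the median of all genes was -0.29 in this comparison and 0.28 in fraction 5/6.

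In whole brain RNA, 0 members were called by edgeR, beside 0.0735% of 16333 genes, and 0 by DESeq2, beside 12 genes higher and 12 lower. In edgeR 2 members had an unadjusted p below 0.05 (2.59% of all genes did). Differences were positive for 37 of 43 members, with a median of 0.09 against 0.00 over all genes, and none was beyond 0.5. Nova1, a neuronal splicing factor, had 131, 132 and 138 CPM in WT RNA and 150.2, 166 and 160.1 CPM in FMR1 KO RNA (0.28 ± 0.09, adjusted p = 0.999). Syncrip had 139, 132 and 164 against 158, 168 and 184 CPM (0.26 ± 0.11). The groups did not overlap for Nova1 and overlapped for Syncrip. The change of occupancy between genotypes called 0 members by edgeR, beside 0.0669% of 16437 genes, and 0 by DESeq2, beside 36 genes higher and 27 lower. Here the differences were positive for 12 of 43 members, with a median of -0.10 against -0.01 over all genes. In edgeR 1 member was at an unadjusted p below 0.05 (6.12% of all genes), Cpeb4, a polyadenylation factor of the CPEB family (-0.28 ± 0.13). Its pellets held 72.2, 79.2 and 78.4 CPM in WT and 76.3, 53.9 and 82.3 CPM in FMR1 KO, and its RNA 147, 161 and 169 against 178, 165 and 182 CPM. Igf2bp2, next in p, had 7.41, 7.65 and 5.67 CPM in WT RNA and 7.30, 6.43 and 7.57 CPM in FMR1 KO RNA (0.55 ± 0.29). The next was Igf2bp2 (0.55 ± 0.29).

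The pellets of the 2 preparations were compared last. In WT 7 members were higher in the standard than in the low nuclease pellet and 6 were lower, beside 15.0% and 24.0% of 14557 genes, and in FMR1 KO 1 was higher and 3 were lower, beside 7.42% and 9.53% of 14535 genes. Ago2 stood at 44.5, 48.6 and 45.5 CPM in standard WT pellets and 126, 151 and 120.4 CPM in low nuclease WT pellets (a fitted level 2.00-fold lower in WT, with a log2 SE of 0.13, and a log2 difference of -1.18 ± 0.11 in FMR1 KO). Purb had 37.3, 53.9 and 41.4 against 116, 101 and 116 CPM (-0.81 ± 0.12, and -1.02 ± 0.23 in FMR1 KO). In both genes the preparations did not overlap in WT. FMR1 KO pellets held 44.3, 35.3 and 48.9 CPM of Ago2 in the standard and 120.01, 141 and 155 CPM in the low nuclease preparation, and 33.1, 38.9 and 47.8 against 86.8, 135 and 133 CPM of Purb. Cpeb3 (-0.34 ± 0.08 in WT, -0.42 ± 0.10 in FMR1 KO) was the other member lower in both genotypes, at 36.4, 26.1 and 45.3 CPM in standard and 63.1, 72.7 and 67.0 CPM in low nuclease FMR1 KO pellets, and Khdrbs1 was the one higher in both (0.74 ± 0.15 and 0.75 ± 0.19). Khdrbs1 had 318, 370.1 and 280.1 CPM in standard and 282, 318 and 228 CPM in low nuclease WT pellets, and 370.2, 255 and 389 CPM in standard FMR1 KO pellets beside the low nuclease values given above.

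Dcp2 had 6.16, 7.36 and 6.79 CPM in standard WT pellets and 20.6, 17.7 and 20.2 CPM in low nuclease ones (-1.01 ± 0.11), a fall called in WT. G3bp2 (0.74 ± 0.13) and Caprin1 (0.70 ± 0.15) were higher in WT. Low nuclease WT pellets held 353, 377 and 300.2 CPM of G3bp2 and, for Caprin1, 606, 687 and 515 CPM, close to or below the standard values given above. Igf2bp1 was 8.09 ± 2.84 in WT, not called, and 0.04 ± 0.31 without WT standard pellet replicate 1. With library size alone the median of all genes was -0.56 in WT and -0.52 in FMR1 KO, and no member was higher, 25 being lower in WT and 10 in FMR1 KO. Elavl4, Stau1 and Tardbp changed sign there in WT. Over all genes library size alone called 295 higher and 7124 lower in WT and 291 and 3628 in FMR1 KO. DESeq2 called 12 members higher and 6 lower in WT, beside 3041 and 3650 genes, and 7 and 8 in FMR1 KO, beside 1992 and 2253 genes. The WT count of 13 fell to 4 without standard replicate 1, 5 without low nuclease replicate 1 and 7 without low nuclease replicate 3, beside 902, 912 and 951 genes higher and 1539, 2279 and 2176 lower. Celf1, a CELF protein, and Pura were the other lower members in WT (-0.48 ± 0.10 and -0.41 ± 0.10), and Taf15 (0.63 ± 0.13), Elavl4 (0.48 ± 0.12), Stau1 (0.36 ± 0.11) and Tardbp (0.41 ± 0.13) the other higher ones. The FMR1 KO count of 4 rose to 17 without low nuclease replicate 1, beside 1907 genes higher and 2627 lower. It was 2 without standard replicate 2, beside 582 and 829 genes. Without any other single library it was 1, Ago2, beside 165 to 509 genes higher and 291 to 561 lower.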

How the data were processed

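Per the study's methods, the authors trimmed reads with Cutadapt 2.10, removed rRNA with Bowtie2 2.3.5, aligned to GRCm38 (Ensembl annotation) with STAR 2.7.8a, dropped duplicates marked by Picard with SAMtools 1.19.2, and deposited raw counts per gene from featureCounts 2.2.0 for 36 libraries. The authors also deposited peaks of RPF coverage on transcripts, called in each standard RPF library, with heights in unscaled read coverage; whether their cut on peak height had been applied was not stated in the sources used here. Strand use in counting and the treatment of multimapping reads are not given in the sources used here, so paralogues such as G3bp1 and G3bp2 may share reads.

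Counts were tested here with edgeR 4.0.16 in R 4.3.3 (quasi-likelihood test, TMM scaling, filterByExpr, Benjamini-Hochberg adjustment over all genes tested, threshold 0.05), on protein-coding genes without Cdk8; 26 noncoding rows were removed. The fit was tested on simulated counts. Each two-group comparison used only its own groups. Standard errors are the log2 fold change divided by the square root of F. Gene models and biotypes came from GENCODE M21, and 6230 of 6259 transcripts with a peak were matched. Alternatives were DESeq2 1.42.0, library size scaling, no filter, Cdk8 kept, a replicate block, RNA of the other preparation and leaving out each library. Values in every library were given for the 4 called members with the highest and the 4 with the lowest log2 fold change of a comparison within a genotype, for up to 6 called members of a comparison between genotypes or preparations or else the 2 with the smallest p, for members blotted in the study (G3bp1, Stau2, Pura, Igf2bp1, Tia1), for the highest and lowest level and for the members with the most recurrent peaks; others were named to fill out a role. The members and the lists were chosen with earlier results of these data known.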

Additional observations from a re-analysis of the deposited data

How the results depend on the processing

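Of the counts of called members and other main values under the alternatives, 168 stayed within 1.5 times the reported value and 54 did not; of the alternatives to the 66 single-gene values chosen by the naming rule, 716 kept their side of the threshold, 140 lost it, 1 gained it and 1 turned its sign. Among all called members, library size alone turned the sign of 8 in WT and 8 in FMR1 KO standard occupancy and of 3 between the WT pellets of the standard and low nuclease preparations. With library size alone, the members called came to 0 for FMR1 KO enrichment in the standard preparation, 0 for WT and 0 for FMR1 KO occupancy at low nuclease, 16 for FMR1 KO enrichment at low nuclease, and 25 in WT and 10 in FMR1 KO for standard against low nuclease pellets. DESeq2 called 10 in FMR1 KO standard enrichment and 15 in the FMR1 KO pellet comparison. Without a filter on low counts 3 were called in FMR1 KO low nuclease enrichment and 2 in the FMR1 KO pellet comparison. The counts over all genes without this filter are not given here, so these changes are not read as particular to the members. With RNA of the standard preparation, FMR1 KO low nuclease occupancy called 27 members and Larp1 in WT turned from -0.60 to 0.18. Recurrent member peaks numbered 2 at 3 nt and 28 at 12 nt. The median member level in WT standard pellets, 106.2 ± 14.4 CPM (SD, n = 3), was 58.0 with Cdk8 kept and 130.3 with TMM scaling. Except where the construction of an alternative shows it, the cause was not tested.

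Leaving out 1 library gave 0 to 6 called members in WT and 2 to 5 in FMR1 KO standard enrichment, 0 to 6 and 0 to 4 in low nuclease enrichment, 4 to 21 in FMR1 KO low nuclease occupancy, 0 to 1 in the genotype change of enrichment, 4 to 16 in WT and 1 to 17 in FMR1 KO for the pellets of both preparations, and 9 to 13 recurrent peaks. The 21 stood beside 3404 genes higher and 2293 lower, and the 16 beside 2381 and 3546. The 5 stood beside 1167 and 195 genes, and the 4 of FMR1 KO low nuclease enrichment beside 1105 and 967.

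The rule used found no pairing by replicate number. In 0 of 32 pairs of groups did all same-numbered libraries deviate together (correlations from -0.48 to 0.67, limit 0.1). With so few libraries per group this rule cannot exclude pairing. For the groups compared in enrichment at low nuclease, WT gave 0.18, 0.094 and 0.21 and FMR1 KO 0.36, 0.14 and 0.051. In the standard preparation WT gave 0.069, -0.028 and 0.20 and FMR1 KO 0.018, 0.15 and 0.20. A replicate block raised the genes called in low nuclease enrichment and lowered them in standard enrichment. With the replicate block 2 members were called in FMR1 KO standard enrichment, beside 840 genes higher and 16 lower. In FMR1 KO low nuclease occupancy 9 were called, beside 1692 and 1077 genes. In FMR1 KO low nuclease enrichment 8 were called, beside 2499 and 2184 genes. The FMR1 KO pellet comparison called 2, beside 298 and 485 genes. No other count of called members moved by over 1.5 times.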

Other observations

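Counts of a few members came mostly from a single library or from part of a group, and the values are given here beside the comparisons they touch. Igf2bp1 stood at 51.9 CPM in the library labelled WT fraction 5/6 replicate 3, with 1.68 CPM as the next highest of that group. Cpeb2, a polyadenylation factor of the CPEB family, stood at 1023 CPM in low nuclease WT fraction 5/6 replicate 1 and at 419 CPM in low nuclease FMR1 KO pellet replicate 3. Its low nuclease WT enrichment was -2.14, and -0.04 ± 0.12 without the first of these libraries. Its low nuclease pellet difference between FMR1 KO and WT was 1.23, and 0.04 ± 0.11 without the second. Low nuclease FMR1 KO fraction 5/6 held 1179, 235 and 95.5 CPM of Cpeb2 and 114, 0.878 and 25.9 CPM of Igf2bp1. Their FMR1 KO enrichments there were -1.22 and -5.59, and neither was called. Cnot1 stood at 846 CPM in low nuclease WT fraction 5/6 replicate 2, and its enrichment there went from -0.40 to 1.67 ± 0.14 without that library (edgeR, adjusted p = 0.0049). In low nuclease FMR1 KO fraction 5/6 it stood at 95.7, 879 and 904 CPM, so high values were in 2 of those 3 libraries, and its enrichment was -1.35 (adjusted p = 0.24), against a called 1.47 in the standard preparation. The cause of these values was not tested.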
